A study of Mus musculus with 15 samples.

Results

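The genes described here encode the proteins of the cytosolic ribosome, followed across 4 groups of mouse liver that combine 2 strains with 2 oxygen conditions. They were chosen by name: symbols that begin with Rpl or Rps followed by a number, or by p and a number, without those marked as pseudogenes in the symbol, the kinase genes of the Rps6k family and Rps19bp1. A mean of at least 1 FPKM (fragments per kilobase of transcript per 1000000 fragments) over the 15 libraries was also required. Of 54532 genes in the table, 91 had such a name and 84 reached that level. They comprise 49 genes of the large subunit (Rpl) and 35 of the small subunit (Rps). Of the 84, 79 are annotated as working genes and 5 as pseudogenes (Rps3a2, Rps3a3, Rpl6l, Rpl37rt and Rps4l). Just inside the limit lay Rps10 at a mean of 1.15 FPKM, and just outside it Rpl24 at 0.95 FPKM. The other names below the limit were Rpl36al (0.755 FPKM), Rpl32l (0.404), Rpl3l (0.140), Rpl39l (0.116), and Rpl10l and Rps12l1, which were listed at 0 in all 15 libraries.

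Total liver RNA was sequenced from mice at postnatal day 12 in a study of oxygen-induced retinopathy, a model in which high oxygen damages the growing vessels of the retina. The series calls C57 mice susceptible and BALBc mice resistant to it, and asked which metabolic differences between their livers go with protection. Hyperoxia groups breathed 75% oxygen from day 7 to day 12 and normoxia groups stayed in room air, and no genetic change or drug is named for any group. There were 4 libraries of C57 normoxia, 4 of C57 hyperoxia, 3 of BALBc normoxia and 4 of BALBc hyperoxia. The labels give neither the substrain nor whether each library of a group is a separate animal. The p-values therefore speak of the spread between these libraries, part of which may be technical. Whole liver was used, and in such bulk RNA fewer cells of a type and less RNA per cell cannot be told apart. The values were mapped to GRCm38, the genome of a C57 strain, so strain and distance from the reference genome cannot be told apart in the strain comparisons.

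A ribosome joins a small subunit, which reads the messenger RNA, to a large subunit, which forms the peptide bonds, and most of their proteins are present in a single copy in each particle. Their messenger RNAs begin with a C followed by a run of pyrimidines (a terminal oligopyrimidine, or TOP, start), through which the mTORC1 kinase controls their translation together with that of elongation factors. The mouse genome also carries many processed copies of these genes, DNA copies of the spliced messenger RNA that are often nearly identical to their parent, so that reads of the parent and of the copy can be hard to tell apart.

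How close a gene and its copy can be is shown for 5 pairs in which the gene was called lower and the copy higher in BALBc normoxia. Each stretch holds 90 bases of the parent's coding sequence and the aligned bases of the copy, read 5′ to 3′ from GENCODE M21 (GRCm38), and capitals mark the bases at which parent and copy differ. The stretches of the parents Rpl26 (chr11:68903179-68903268, + strand) and Rplp0 (chr5:115561138-115561227, + strand) are followed by those of Gm15772 (chr5:3236599-3236688, + strand) and Gm8730 (chr8:102865352-102865441, - strand). The others are those of Rps18 (chr17:33955087-33955176, - strand) and Gm11361 (chr13:28257639-28257728, + strand), of Rps3a1 (chr3:86138488-86138577, - strand) and Rps3a2 (chr14:88123141-88123230, - strand), and of Rpl3 (chr15:80082493-80082582, - strand) and Rpl3-ps1 (chrX:13202575-13202664, + strand).
Rpl26: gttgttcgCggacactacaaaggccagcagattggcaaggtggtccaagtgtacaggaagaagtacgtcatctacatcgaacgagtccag
Gm15772: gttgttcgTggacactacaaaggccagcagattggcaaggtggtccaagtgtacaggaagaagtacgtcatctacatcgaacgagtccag
Rplp0: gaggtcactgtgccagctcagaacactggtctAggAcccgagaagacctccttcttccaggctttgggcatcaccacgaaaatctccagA
Gm8730: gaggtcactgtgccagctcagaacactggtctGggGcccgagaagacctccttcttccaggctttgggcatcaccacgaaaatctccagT
Rps18: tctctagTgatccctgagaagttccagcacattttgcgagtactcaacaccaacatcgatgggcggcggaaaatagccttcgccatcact
Gm11361: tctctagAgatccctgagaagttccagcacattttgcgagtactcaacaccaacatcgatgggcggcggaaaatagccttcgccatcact
Rps3a1: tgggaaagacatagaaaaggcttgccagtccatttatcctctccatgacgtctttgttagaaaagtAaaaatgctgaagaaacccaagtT
Rps3a2: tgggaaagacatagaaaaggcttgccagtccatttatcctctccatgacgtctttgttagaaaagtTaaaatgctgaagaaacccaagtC
Rpl3: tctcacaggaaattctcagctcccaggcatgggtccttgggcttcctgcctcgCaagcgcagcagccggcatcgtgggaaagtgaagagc
Rpl3-ps1: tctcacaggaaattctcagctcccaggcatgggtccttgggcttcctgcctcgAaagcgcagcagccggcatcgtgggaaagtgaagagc

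Over the whole coding sequence, Gm15772 differs from Rpl26 at 2 of 435 bases (99.5% identity) and Rpl3-ps1 from Rpl3 at 2 of 1209 (99.8%). Gm11361 differs from Rps18 at 3 of 456 bases (99.3%), Rps3a2 from Rps3a1 at 4 of 792 (99.5%), and Gm8730 from Rplp0 at 12 of 951 (98.7%). Such pairs were common. When a copy was defined as an annotated pseudogene, or a gene with a provisional (Gm) or pseudogene symbol, that shares at least 20% of the 31-base words of a member's coding sequence, 630 genes in the table were copies, and 75 of the 79 working genes had at least 1. For only 12 of the 84 members, at least 90% of the 75-base words of a chosen transcript occur in no transcript of another gene. The sources used here do not give how reads shared by a gene and its copies were counted, so the split between a member and its copies is uncertain, and results are given for single members, for the 12 with mostly unique sequence and for each member together with its copies.

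The libraries held 14915190 to 19136255 fragments, read from the step of the smallest values. Among genes with 1 to 10 fragments, at least 29.75% had exactly 1 in 7 libraries, namely BALBc normoxia 1, BALBc hyperoxia 1, C57 normoxia 4 and the 4 of C57 hyperoxia, and at most 18.22% in the other 8 libraries, a split into 2 classes about which the labels say nothing. C57 normoxia 4 stood apart from the other libraries of its group for the ribosomal protein genes, with the highest value of all 15 libraries in 66 of the 84 members. The 7 hepatocyte markers, Alb and Ttr among them, summed to 79493 to 102826 FPKM in the libraries. The summed level of 9 Kupffer cell and macrophage markers, none of them at 0, was 563 to 887 FPKM in C57 normoxia, 332 to 435 in C57 hyperoxia, 176 to 200 in BALBc normoxia and 165 to 211 in BALBc hyperoxia.

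Ribosomal protein genes were most highly expressed in C57 normoxia, lower in C57 hyperoxia and lowest in both BALBc groups. The summed level of the 84 members was 11551, 12976, 12035 and 14538 FPKM in C57 normoxia 1 to 4, and 9929, 10646, 9637 and 9858 FPKM in C57 hyperoxia 1 to 4. In BALBc it was 7385, 6545 and 6711 FPKM in normoxia 1 to 3, and 6654, 7435, 6677 and 6980 FPKM in hyperoxia 1 to 4. No C57 library overlapped a BALBc library, the 2 C57 groups did not overlap each other, and the 2 BALBc groups did. The sum in C57 hyperoxia was 78.4% of that in C57 normoxia, and in BALBc normoxia it was 53.9% of that in C57 normoxia. In BALBc hyperoxia it was 101% of that in BALBc normoxia.

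The typical member followed the same order. Its median FPKM was 116 ± 12.5 (mean of the libraries ± SD, n = 4) in C57 normoxia, 92.9 ± 5.15 (n = 4) in C57 hyperoxia, 59.4 ± 5.56 (n = 3) in BALBc normoxia and 63.6 ± 1.61 (n = 4) in BALBc hyperoxia. The BALBc groups, neighbours in this order, overlapped: the hyperoxia libraries (62.1 to 65.0) lay within the range of the normoxia libraries (54.6 to 65.5). Counting members and all copies together, the family took 1.94% to 2.46% of all fragments in C57 normoxia, 1.67% to 1.82% in C57 hyperoxia, 1.18% to 1.34% in BALBc normoxia and 1.22% to 1.34% in BALBc hyperoxia. The copies alone took 0.146% to 0.188% and 0.132% to 0.140% in the C57 groups and 0.183% to 0.205% and 0.183% to 0.199% in the BALBc groups. The lower total in BALBc was that of the members, whereas the share of the copies was not lower there than in most C57 libraries.

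**Figure D1:**
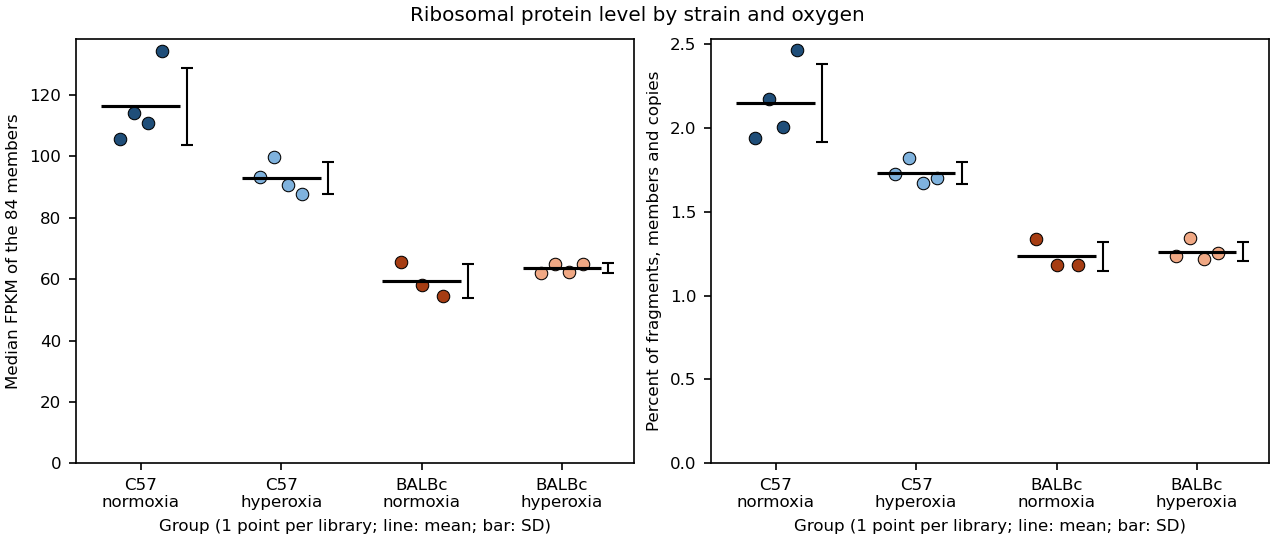
Each point is 1 of the 15 libraries in its strain and oxygen group, with a line for the group mean and a bar for the SD; the vertical axes give the median FPKM of the 84 ribosomal protein genes and the percent of fragments in members and copies. C57 normoxia is highest (median 116 FPKM), C57 hyperoxia lies between (92.9) and the BALBc groups are lowest (59.4 and 63.6).

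**Figure D2:**
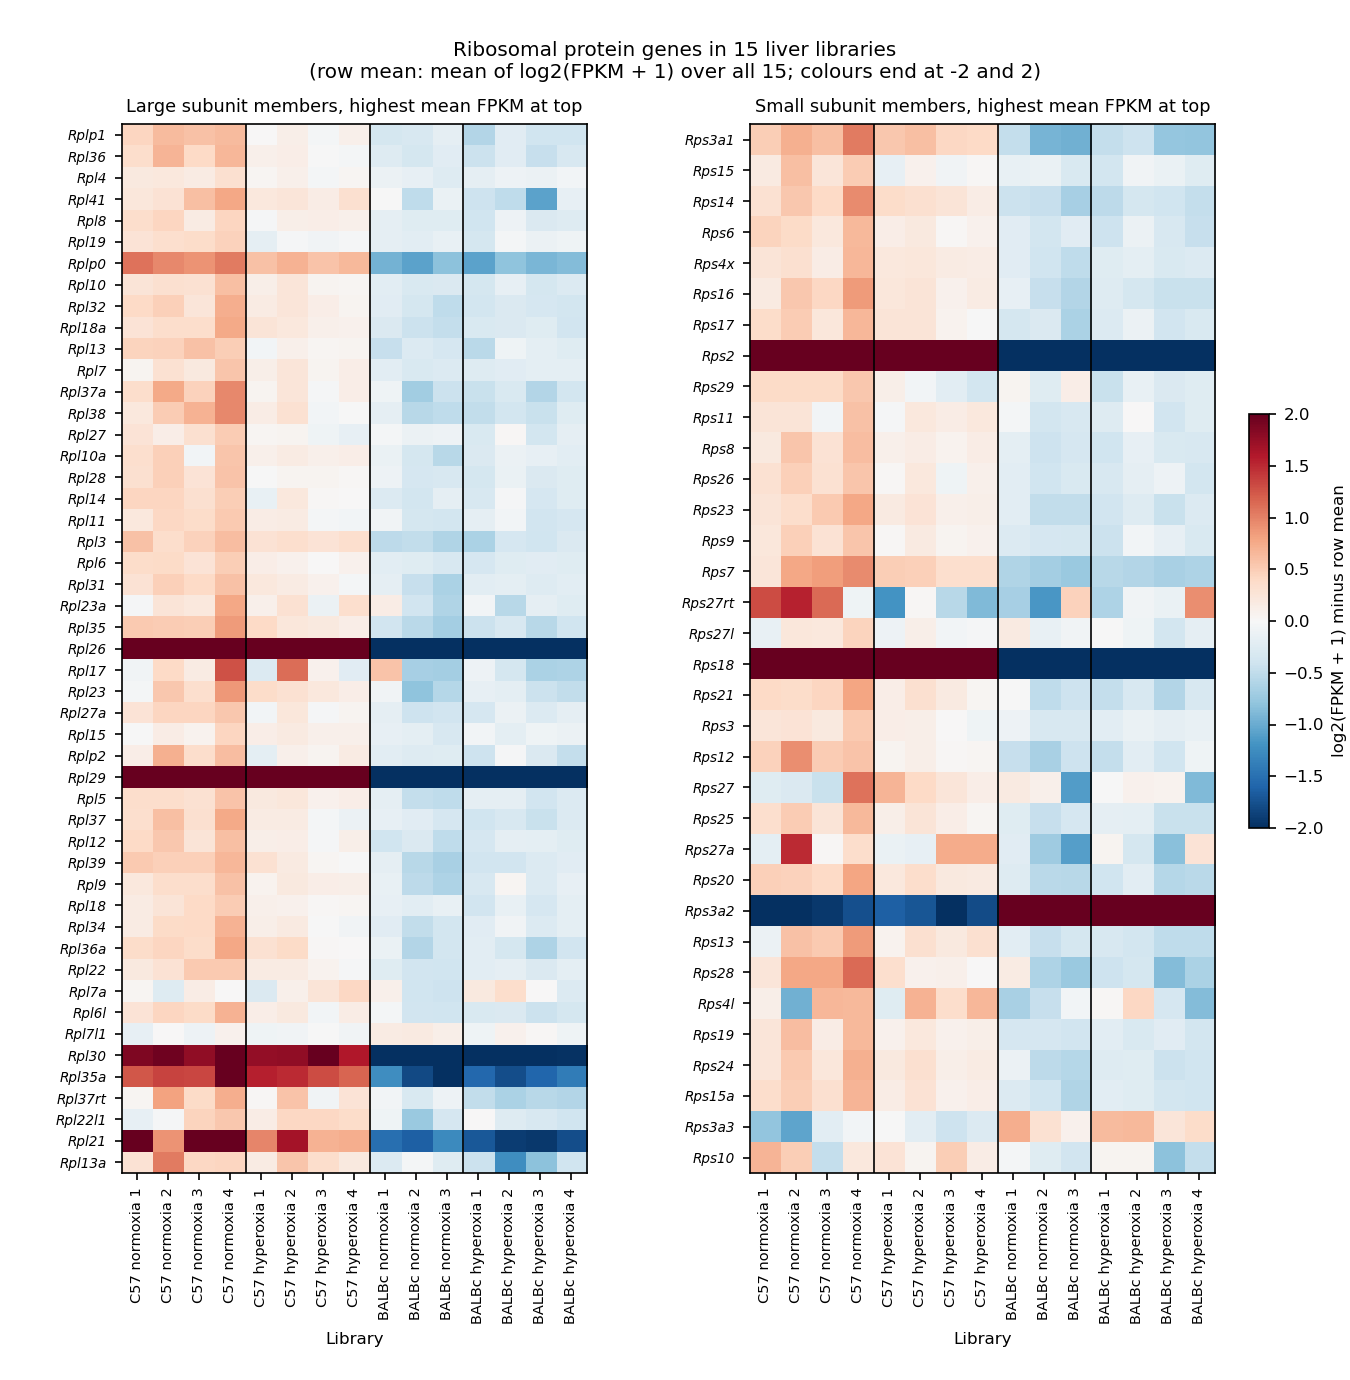
Each row is 1 of 83 members and each column 1 library; colour gives the log2 of FPKM + 1 relative to the member's mean over all 15 libraries. Most rows are high in the C57 normoxia columns and low in the BALBc columns.

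Members were compared on the scale of log2(FPKM + 1) with limma, a linear model fitted to all 13026 genes with at least 1 FPKM in at least 3 libraries. All 84 members passed this filter, and a gene was called at a Benjamini-Hochberg adjusted p under 0.05 over all 13026 genes. Because the C57 normoxia libraries are the reference of 2 of the comparisons, values from the oxygen comparison in C57 and from the strain comparison in normoxia are not independent of each other, and the same holds for other comparisons with a group in common.

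The strain comparison asked how livers of resistant pups differed from those of susceptible pups. In normoxia 75 of the 84 members were called lower in BALBc, beside 14.6% of all genes tested, and 2 were called higher, beside 15.4%. The members' median log2 difference was -0.77, and over all genes it was 0.01. For 71 members every BALBc normoxia library lay below every C57 normoxia library, which was the case for 14.2% of all genes. In hyperoxia 62 members were called lower in BALBc, beside 11.3% of all genes, and 2 higher, beside 11.9%, with a median of -0.43. There the groups did not overlap, BALBc lower, for 65 members, beside 15.6% of all genes. All 62 members called lower in hyperoxia were among the 75 called lower in normoxia, and 77 of the 84 members had a value nearer to 0 in hyperoxia than in normoxia.

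Other abundant genes went both ways. Counts here are set beside the shares over all genes. These were 15.4% called higher and 14.6% lower in normoxia, and 11.9% higher and 11.3% lower in hyperoxia. Of 799 genes with a mean of at least 50 FPKM that are not members, 236 were called higher and 194 lower in BALBc normoxia, with a median of 0.00. Abundant genes were thus called more often in both directions than all genes together. Of the 12 members with mostly unique sequence, 9 were called lower in normoxia with a median of -0.64, and 7 in hyperoxia with a median of -0.37. Kupffer cell and macrophage markers were lower too, with 8 of 9 called lower in BALBc in normoxia and 8 of 9 in hyperoxia, and their part in the result was not tested. Of 7 B cell markers listed and 6 T and NK cell markers listed, 3 each passed the filter. Of the 3 B cell markers tested, 2 were called lower in BALBc in normoxia and 3 in hyperoxia. Of the 3 T and NK cell markers tested, 2 were called lower in normoxia and 0 in hyperoxia with limma, where all 3 had values below 0 and 1 an unadjusted p under 0.05. Neutrophil markers were called higher for 0 of 7 in normoxia with limma, where all 7 had values above 0 and 1 an unadjusted p under 0.05, and for 6 of 7 in hyperoxia. Megakaryocyte markers were called higher for 0 of 4 in normoxia with limma, where 0 had an unadjusted p under 0.05, and for 4 of 4 in hyperoxia. Of 8 erythroid markers tested, 1 was called higher in normoxia and 3 in hyperoxia. Stellate cell markers were called higher for 2 of 6 in normoxia and 1 in hyperoxia. Of 4 cholangiocyte markers tested, 1 was called lower in normoxia and 2 in hyperoxia. Of 7 hepatocyte markers, 1 was called higher and 2 lower in normoxia, and 2 lower in hyperoxia. Of 6 endothelial markers, 1 was called higher and 1 lower in normoxia, and 1 higher in hyperoxia. The part of these cell types in the result was not tested either.

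Most of the called members differed moderately. Of the 75 called lower in normoxia, 64 had a log2 difference between -1.2 and -0.3 and 8 one below -1.6. Rps3, a protein at the entry of the messenger RNA channel, illustrates the moderate kind and was picked out here because all of its 75-base words are unique. It stood at 78.9, 80.7, 76.2 and 96.2 FPKM in C57 normoxia 1 to 4 and at 61.4, 52.8 and 52.7 FPKM in BALBc normoxia 1 to 3. Every BALBc library was below every C57 library. The log2 difference was -0.57 ± 0.09 (SE, limma adjusted p = 0.000186) in normoxia and, not called, -0.22 ± 0.08 (adjusted p = 0.068) in hyperoxia.

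Among proteins of the large subunit, Rpl4, which lines the peptide exit tunnel, stood at 327, 330, 320 and 356 FPKM in C57 normoxia and at 262, 254 and 238 FPKM in BALBc normoxia. The groups did not overlap, and the log2 difference was -0.41 ± 0.06 (adjusted p = 0.000144). In hyperoxia it was -0.14 and not called (adjusted p = 0.0785). Rpl19, which joins the subunits by a bridge, had values of -0.53 (adjusted p = 8.82e-05) in normoxia and -0.07 (adjusted p = 0.511) in hyperoxia.

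The acidic stalk of the large subunit recruits elongation factors and consists of Rplp0 and dimers of Rplp1 and Rplp2. Rplp1 was the most abundant member, at 1208, 1384, 1338 and 1390 FPKM in C57 normoxia and at 697, 715 and 787 FPKM in BALBc normoxia. In hyperoxia it stood at 897, 967, 865 and 960 FPKM in C57 and at 592, 766, 674 and 678 FPKM in BALBc. No BALBc library reached a C57 library in either condition, with log2 differences of -0.86 ± 0.08 (adjusted p = 2.78e-06) and -0.45 ± 0.08 (adjusted p = 0.000699). Rplp2 had values of -0.69 (adjusted p = 0.00137) in normoxia and -0.34 (adjusted p = 0.0656) in hyperoxia.

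Rplp0, the base of the stalk, differed far more than its partners. It stood at 413, 379, 360 and 397 FPKM in C57 normoxia, at 292, 314, 286 and 304 in C57 hyperoxia, at 100, 91.5 and 109 in BALBc normoxia and at 91.4, 110, 102 and 105 in BALBc hyperoxia. The strains did not overlap, and the log2 difference was -1.94 ± 0.08 (adjusted p = 1.58e-10) in normoxia and -1.54 ± 0.07 (adjusted p = 8.36e-10) in hyperoxia. Its copy Gm8730 showed the opposite, with a mean of 2.97 FPKM in C57 normoxia and 187 FPKM in BALBc normoxia (log2 difference 5.63, adjusted p = 3.07e-11), and a further copy, Gm9625, had means of 0.235 and 21 FPKM. Counted as FPM, fragments per 1000000 of the library without regard to length, Rplp0 held 643 and its copies 3.07 in C57 normoxia, and 166 and 199 in BALBc normoxia, where 54.5% of the family lay in copies. With the copies added to the gene, the log2 difference was -0.82 in normoxia and -0.40 in hyperoxia, close to the values of Rplp1.

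Some members were near 0 in the BALBc libraries, among them Rpl29, a small protein of the large subunit also known for binding heparin. It stood at 147, 158, 137 and 144 FPKM in C57 normoxia and at 0.418, 0.749 and 1.09 FPKM in BALBc normoxia. C57 hyperoxia had 100, 112, 93.5 and 101 FPKM, and BALBc hyperoxia 0.719, 0.332, 0.529 and 0.907 FPKM. All BALBc libraries were thus near 0 and all C57 libraries above 90, and the log2 differences of -6.41 ± 0.13 (adjusted p = 2.21e-13) and -5.99 ± 0.12 (adjusted p = 1.16e-13) were the largest of any member in either condition. Rps2, at the messenger RNA entry of the small subunit, stood at 260, 274, 250 and 299 FPKM in C57 normoxia against 4.45, 5.39 and 6.36 in BALBc normoxia, without overlap (-5.42 ± 0.12, adjusted p = 4.41e-13).

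Rpl26, a large subunit protein that in human cells also binds p53 messenger RNA, stood at 144, 161, 164 and 201 FPKM in C57 normoxia and at 2.03, 2.29 and 2.37 in BALBc normoxia. The log2 difference was -5.70 ± 0.24 (adjusted p = 2.43e-10). Rps18, at the head of the small subunit, stood at 181, 195, 195 and 234 FPKM in C57 normoxia and at 6.08, 1.59 and 1.97 in BALBc normoxia (-5.73 ± 0.27, adjusted p = 8.15e-10). Both genes were separated between the strains without overlap. In hyperoxia the differences were -5.68 for Rpl26 and -4.84 for Rps18.

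Rpl30, Rpl21 and Rpl35a completed this group. Rpl30, which in yeast regulates its own splicing, stood at 38.7, 40.8, 36.1 and 51.0 FPKM in C57 normoxia and at 1.71, 1.25 and 1.11 in BALBc normoxia (-4.17 ± 0.12, adjusted p = 6.74e-12). Rpl35a, a gene mutated in some patients with Diamond-Blackfan anaemia, stood at 27.2, 29.5, 29 and 48.4 FPKM against 4.03, 2.41 and 1.71 (-3.23 ± 0.21, adjusted p = 3.06e-08). Neither overlapped between the strains. Rpl21 was uneven within C57 normoxia, at 22.2, 8.40, 22.6 and 24.4 FPKM, and stood at 0.784, 0.630 and 1.08 in BALBc normoxia (-3.38 ± 0.30, adjusted p = 9.02e-07).

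In each of these 7 families copies held most of the fragments in BALBc, and for Rpl21 they did so in C57 as well. Gm15772, the copy of Rpl26 shown above, averaged 26.4 FPKM in C57 normoxia and 336 FPKM in BALBc normoxia (log2 difference 3.65, adjusted p = 2.36e-10). Gm11361, a copy of Rps18, averaged 12.3 and 102 FPKM (2.98, adjusted p = 6.58e-09), Gm12191, a copy of Rpl30, 46.2 and 185 FPKM (2.01, adjusted p = 8.41e-06), and Gm10243, a copy of Rpl35a, 9.81 and 49.4 FPKM (2.42, adjusted p = 0.00026). The share of the family's fragments in copies was 97.9% for Rpl26, 97.5% for Rpl29, 96.5% for Rps2, 94.1% for Rpl30, 89.5% for Rps18, 86.3% for Rpl21 and 68.3% for Rpl35a in BALBc normoxia. In C57 normoxia it was 5.27%, 13.4%, 10.7%, 21.3%, 1.80%, 52.5% and 4.77% for the same genes in that order. The copies of Rpl21 held fewer fragments in BALBc normoxia (17.9 FPM) than in C57 normoxia (72.9 FPM). Not every copy was higher in BALBc: Rpl30-ps10 averaged 47.9 and 2.30 FPKM (-3.89, adjusted p = 4.34e-05) and Rpl21-ps15 96.3 and 25 FPKM (-1.90, adjusted p = 2.47e-06). Of the 630 copies, 177 that are not members passed the filter. Of these 19 were called higher in BALBc normoxia, beside 15.4% of all genes, and 61 lower, beside 14.6%, with a median of -0.46.

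**Figure D3:**
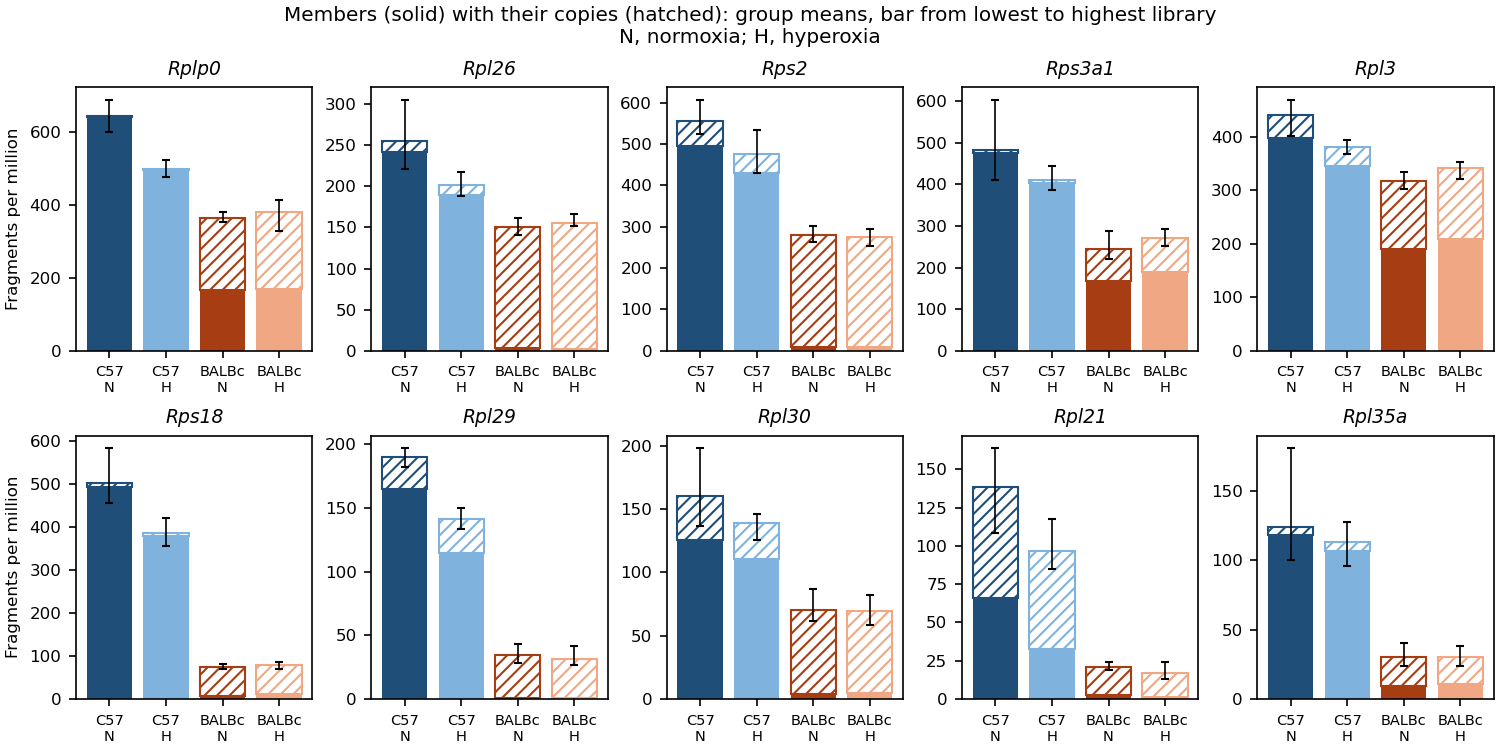
Bars start at 0 and give the group mean in FPM for 10 members (solid) and their copies (hatched), by strain and oxygen group, with a line from the lowest to the highest library for their sum. In BALBc normoxia 97.9% of the Rpl26 family and 54.5% of the Rplp0 family lie in copies, whereas copies hold 13.5 FPM for Rpl26 and 3.07 FPM for Rplp0 in C57 normoxia.

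Adding the copies to their parent brought some of these families close to the other members and left others apart. For Rpl26 the log2 difference became -0.75 in normoxia and -0.37 in hyperoxia, with 242 FPM in the gene and 13.5 in copies in C57 normoxia, against 3.22 and 148 in BALBc normoxia. For Rps2 it became -0.98 and -0.79, for Rpl30 -1.16 and -0.98, and for Rpl35a -1.91 and -1.80. It remained at -2.70 and -2.27 for Rps18, -2.45 and -2.16 for Rpl29, and -2.55 and -2.30 for Rpl21. With copies added, 76 members were called in normoxia and 64 in hyperoxia, against 77 and 64 without. These counts cover unlike sets. With copies added, 4 members that are themselves copies, Rps3a2 and Rps3a3 among them, were merged into their parents and not counted.

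Rps3a1, a small subunit protein also known as a v-fos transformation effector, and its copy Rps3a2, itself a member, moved in opposite directions. Rps3a1 stood at 415, 479, 446 and 608 FPKM in C57 normoxia and at 212, 153 and 150 in BALBc normoxia. Rps3a2 stood at 3.06, 3.20, 3.68 and 4.30 FPKM in C57 normoxia and at 82.7, 70.9 and 77.4 in BALBc normoxia. Neither pair of groups overlapped, the gene being lower (-1.50 ± 0.14, adjusted p = 2.49e-06) and the pseudogene higher (4.10 ± 0.14, adjusted p = 3.07e-11) in BALBc. Added together, gene and copies differed by -0.97 in normoxia and -0.59 in hyperoxia. The related pseudogene Rps3a3, at 0.933 to 2.88 FPKM in C57 normoxia and 3.25 to 5.65 in BALBc normoxia, was the other member called higher (0.90, adjusted p = 0.00636).

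Rpl3, which lies near the site of peptide bond formation, stood at 132, 112, 121 and 135 FPKM in C57 normoxia and at 60.8, 62.1 and 57.2 in BALBc normoxia, without overlap (-1.04 ± 0.08, adjusted p = 4.04e-07). Its copy Rpl3-ps1 averaged 35.7 and 102 FPKM (1.49, adjusted p = 2.49e-08), and 40% of the family lay in copies in BALBc normoxia. With copies added, the difference was -0.47 in normoxia and -0.16 in hyperoxia, where it was no longer called (adjusted p = 0.087). Rps10 went the other way: the gene itself, at 0.483 to 2.31 FPKM in C57 normoxia, was not called (-0.44, adjusted p = 0.226), and with its copies, which held 95.0% to 96.5% of the family in the 4 groups, it was called at -0.84 in normoxia (adjusted p = 0.000514) and -0.42 in hyperoxia (adjusted p = 0.0363).

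In normoxia 7 members were not called between the strains, namely Rpl7l1, Rps27l, Rpl7a, Rps27, Rps4l, Rps10 and Rpl17. Of these 3 have mostly unique sequence, namely Rpl7l1, a paralogue of Rpl7 known in human cells from ribosome assembly, Rps27l, a paralogue of Rps27 that p53 induces, and the pseudogene Rps4l. Rpl7l1 stood at 19.1, 21.8, 20.2 and 23.2 FPKM in C57 normoxia and at 24.3, 24.7 and 23.7 in BALBc normoxia, slightly higher and without overlap, with a log2 difference of 0.20 (adjusted p = 0.0549). Rps27l stood at 88.2, 114, 113 and 134 FPKM against 110, 87.8 and 92.8, with overlapping groups (-0.20, adjusted p = 0.257). Rps4l varied widely within the groups, at 36.0, 16.4, 53 and 51.9 FPKM against 20.6, 23.6 and 31.8 (-0.51 ± 0.37, adjusted p = 0.337). The partners of Rpl7l1 and Rps27l with canonical names differed from each other in call, Rpl7 being called lower (-0.54, adjusted p = 0.000463), while Rps27 was not (-0.31, adjusted p = 0.575).

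**Figure D4:**
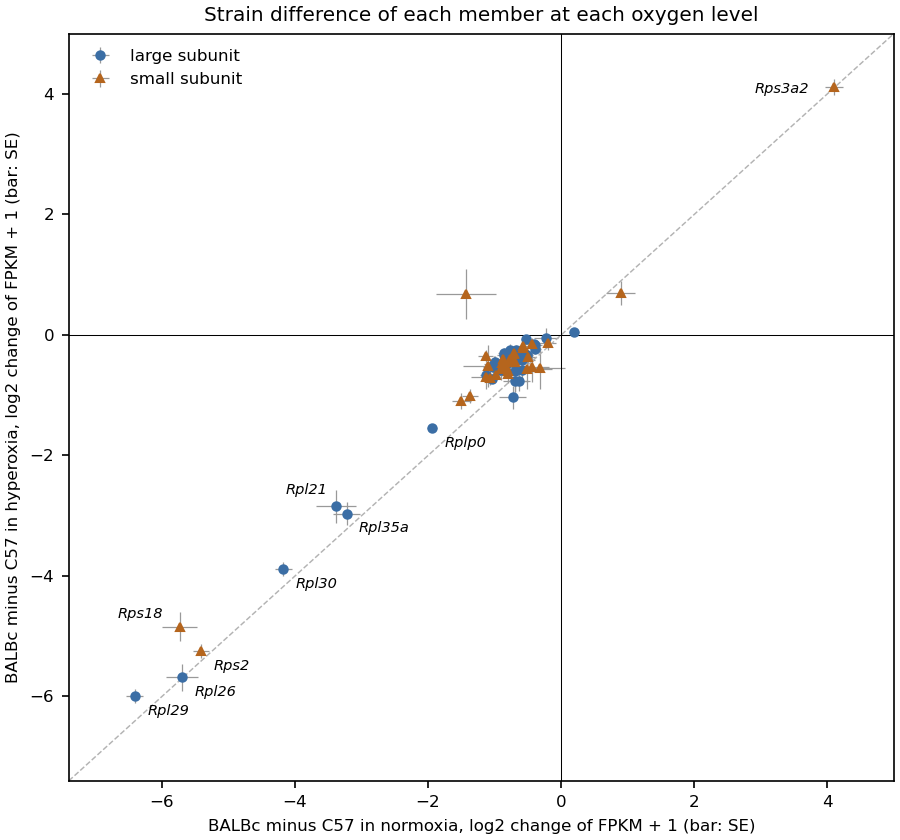
Each point is 1 of 83 members (circles large subunit, triangles small), with its log2 difference between BALBc and C57 in normoxia on the horizontal axis and in hyperoxia on the vertical axis, both with the SE; the dashed line marks equal values. Most members lie between -1.2 and -0.3 in normoxia, genes such as Rpl29 and Rps2 lie far below, and Rps3a2 lies at 4.10 and 4.11.

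The oxygen comparison in C57 asked how 5 days of hyperoxia changed the liver of the susceptible strain. In C57 hyperoxia 13 of the 84 members were called, beside 0.937% of all genes tested. All 13 were lower, beside 0.714% of all genes called lower. The median over the 84 members was -0.30, and over all genes 0.00, and 77 members had a value below 0. For 43 members every hyperoxia library lay below every normoxia library, beside 4.38% of all genes. By subunit, 10 of 49 large and 3 of 35 small subunit members were called. Of the 799 other abundant genes, 9 were called higher and 22 lower, with a median of -0.05, and 89 were lower without overlap. Their shares called lower and lower without overlap exceeded those over all genes. Of the 12 members with mostly unique sequence 1 was called, and the median of the 12 was -0.28.

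The stalk protein Rplp1 had the smallest p of any member. All 4 hyperoxia libraries (865 to 967 FPKM) lay below all 4 normoxia libraries (1208 to 1390 FPKM), with a log2 change of -0.53 ± 0.08 (adjusted p = 0.00522). Rplp0 fell as well, with libraries at 286 to 314 against 360 to 413 FPKM (-0.37 ± 0.07, adjusted p = 0.03). The third stalk protein, Rplp2, stood at 72.4, 109, 85.0 and 102 FPKM in normoxia and at 58.0, 71.4, 68.9 and 74.4 in hyperoxia, with 1 hyperoxia library above 1 normoxia library, and had a value of -0.42 that was not called (adjusted p = 0.141).

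Around the exit tunnel, Rpl19 stood at 280, 292, 297 and 318 FPKM in normoxia and at 205, 229, 220 and 227 in hyperoxia. Its groups were far apart relative to their spread (-0.43 ± 0.07, adjusted p = 0.0105), and Rpl19 was the 1 called gene among 8 listed for the tunnel and its exit. Rpl36 stood at 501, 627, 516 and 622 FPKM against 418, 430, 391 and 383, again without overlap (-0.47 ± 0.08, adjusted p = 0.0155). Rpl13 (-0.47, adjusted p = 0.0206), Rpl6 (-0.30, adjusted p = 0.03), Rpl28 (-0.37, adjusted p = 0.037), Rpl12 (-0.37, adjusted p = 0.045), Rpl37 (-0.46, adjusted p = 0.045) and Rpl14 (-0.39, adjusted p = 0.0487) were the other large subunit genes called.

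In the small subunit, Rps12, known in Drosophila from cell competition, stood at 83.7, 117, 86.7 and 90.6 FPKM in C57 normoxia and at 62.6, 65.7, 61.3 and 62.2 in C57 hyperoxia (-0.57 ± 0.11, adjusted p = 0.0248). The 4 hyperoxia values lay close together and under every normoxia value. Rps29, a gene mutated in Diamond-Blackfan anaemia, changed by -0.55 (adjusted p = 0.0303). Rps6, the target of the S6 kinases, stood at 240, 230, 205 and 278 FPKM in normoxia and at 195, 203, 179 and 188 in hyperoxia. Its groups did not overlap, and its value of -0.31 was not called (adjusted p = 0.136).

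Other members had values near or above 0, and Rps27rt, described beside its relative Rps27, had the lowest value of all 84. Rps27, a zinc finger protein of the small subunit, stood at 48.2, 46.5, 41.7 and 122 FPKM in C57 normoxia and at 92.3, 76.0, 67.8 and 63 in hyperoxia (0.34, adjusted p = 0.702). Its near-identical retrotransposed relative Rps27rt stood at 216, 255, 191 and 81.4 FPKM in normoxia and at 37.3, 87.7, 58.4 and 46.7 in hyperoxia (-1.63 ± 0.42, adjusted p = 0.0879). In C57 normoxia 4 Rps27 was high where Rps27rt was low, and only 1.48% and 9.67% of their 75-base words are unique. Rpl22l1, a paralogue of Rpl22, had a value of 0.13 (adjusted p = 0.766), Rpl7l1 one of -0.02 (adjusted p = 0.941) and Rps3a2 one of 0.11 (adjusted p = 0.757).

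The calls in C57 rested on few libraries. Leaving out 1 library at a time, the number of members called was 2 to 15, and Rplp1 and Rpl19 were called in all 15 refits. Without C57 hyperoxia 3 or C57 hyperoxia 4, 2 members were called, without C57 hyperoxia 1, 4, without C57 hyperoxia 2, 5, and without C57 normoxia 2, 6. Without C57 normoxia 4, the library that stands apart, 11 were called and the median was -0.23. With the class of the library as a term in the model 0 members were called in C57, while the median over members was -0.42. That term and oxygen overlap, since all C57 hyperoxia libraries but 1 C57 normoxia library belong to the class with many genes at 1 fragment. Within that class C57 normoxia 4, at a summed 14538 FPKM, lay above all 4 C57 hyperoxia libraries at 9637 to 10646, but it is a single library. Of the 9 Kupffer cell markers 2 were called lower (Marco and Lyz2) and 1 higher (Clec4f) in C57 hyperoxia, beside 0.937% of all genes called. The part of these markers in the ribosomal protein result was not tested.

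In BALBc 0 of the 84 members were called after hyperoxia, beside 0.944% of all genes tested with limma, and 4 of the 84 members had an unadjusted p under 0.05, beside 1612 of the 13026 genes tested. The median was 0.04, with 54 members above 0 and 30 below. For 4 members every hyperoxia library was below every normoxia library, beside 7.15% of all genes. Rplp1 stood at 697, 715 and 787 FPKM in normoxia and at 592, 766, 674 and 678 in hyperoxia, with overlapping groups (-0.12, adjusted p = 0.632). The members with the smallest p were Rpl13a, whose protein also takes part in translational silencing by the GAIT complex, with a value of -0.53 (adjusted p = 0.271), the pseudogene Rpl37rt with -0.42 (adjusted p = 0.32), and Rpl7l1 with -0.17 (adjusted p = 0.351).

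The difference between the oxygen responses of the strains was tested directly. In 76 of the 84 members the value in C57 lay below that in BALBc, and the median difference of responses was 0.34, against -0.01 over all genes. A single member, Rps12, was called, and it was called higher, beside 0.376% of all genes called higher. Rps12 stood at 43.6, 38.3 and 45.0 FPKM in BALBc normoxia and at 43.3, 52.0, 45.6 and 56.8 in BALBc hyperoxia, where the highest values came from hyperoxia but the groups overlapped (0.22, adjusted p = 0.479). Its difference of responses was 0.78 ± 0.16 (adjusted p = 0.0314), and the call was lost in 9 of 15 refits that each left out 1 library (adjusted p up to 0.0872). An unadjusted p under 0.05 was reached by 41 members, beside 1650 of the 13026 genes. Near the threshold lay Rpl19 (0.46, adjusted p = 0.052) and Rpl13 (0.55, adjusted p = 0.0541). The largest difference of any member was that of Rps27rt, which was not called (2.11 ± 0.62, adjusted p = 0.14).

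**Figure D5:**
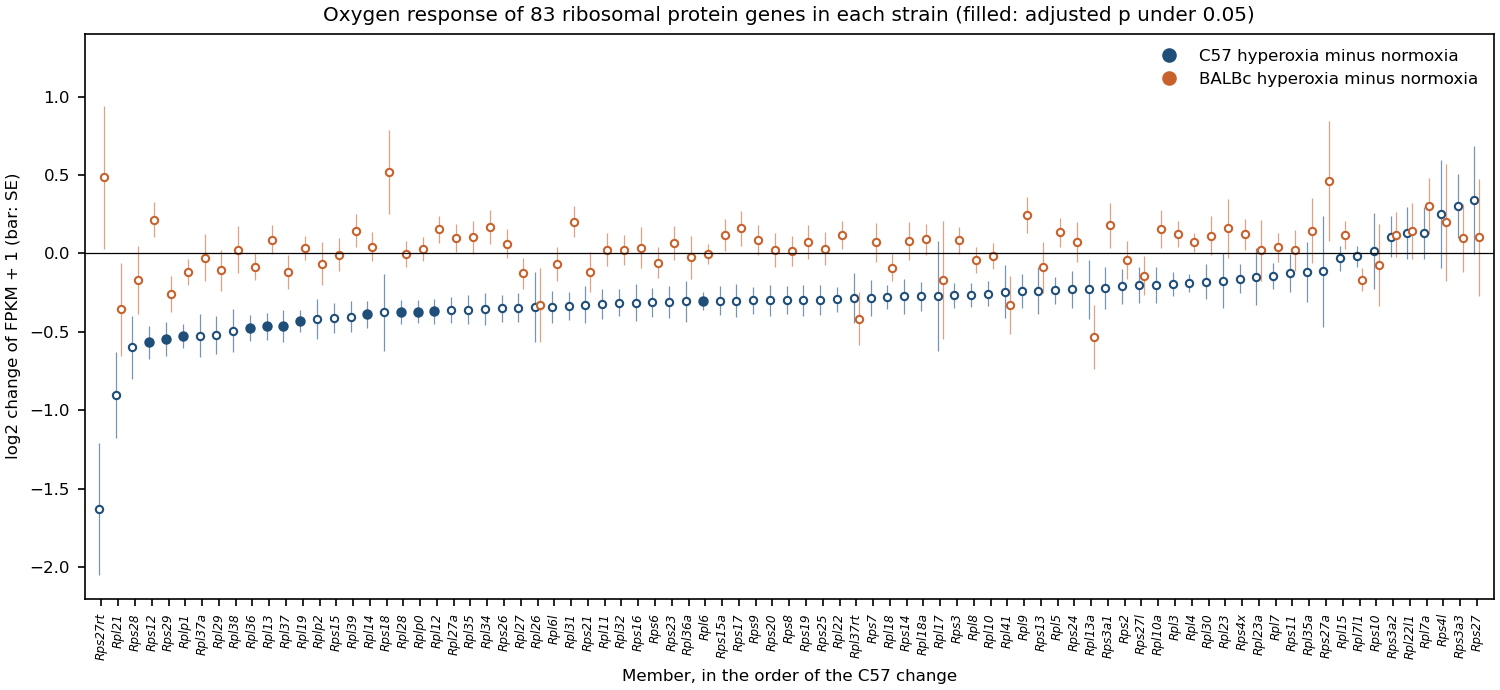
Each of 83 members has a point for its log2 change of FPKM + 1 after hyperoxia in C57 (blue) and in BALBc (orange), with the SE, in the order of the C57 change; filled points are called. The C57 points lie mostly below 0 (median -0.30 over the 84 members) and the BALBc points on either side of 0 (median 0.04, none filled).

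By function, Rpl5 and Rpl11, which carry the 5S ribosomal RNA, and Rpl23, which like them can bind the p53 regulator Mdm2, were each called lower in BALBc in normoxia and in hyperoxia. Rpl5 had values of -0.79 (adjusted p = 1.62e-05) and -0.41 (adjusted p = 0.00256), and Rpl11 of -0.64 (adjusted p = 0.000308) and -0.29 (adjusted p = 0.0386). Of 21 genes mutated in Diamond-Blackfan anaemia, an inherited failure of red cell production, 19 were called lower in BALBc in normoxia, beside 14.6% of all genes, and 16 in hyperoxia, beside 11.3%. In C57 after hyperoxia 1, Rps29, was called lower, beside 0.714% of all genes. All 21 genes are members, so this count is not independent of the one above.

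Some ribosomal proteins have names outside the pattern, and 4 such genes were tested. Of these, 4 were called lower in BALBc than in C57 in normoxia and 2 in hyperoxia, beside 14.6% and 11.3% of all genes. In C57 after hyperoxia 3 were called lower, beside 0.714% of all genes, and the value nearest to 0 was -0.04. Rpsa, Fau and Rack1 were each called lower in BALBc normoxia, with log2 differences of -0.81, -0.66 and -0.55 (limma adjusted p = 8.55e-07, 0.000321 and 2.66e-05). In hyperoxia Rpsa was called (-0.32, adjusted p = 0.00254), and Fau (-0.20, adjusted p = 0.164) and Rack1 (-0.18, adjusted p = 0.0597) were not. In C57 after hyperoxia they were called lower by limma, at -0.44, -0.46 and -0.31 (adjusted p = 0.00575, 0.0473 and 0.0377). For Rpsa, a laminin-binding protein of the small subunit, the difference of responses was called too (0.50, adjusted p = 0.029). Among 18 elongation factors and other genes with TOP messenger RNAs, 14 were called lower in BALBc normoxia (median -0.41) and 8 in hyperoxia, and 0 in C57 after hyperoxia, where their median was -0.16. Of 16 hosts of small nucleolar RNAs 12 passed the filter, of which 10 were called lower in BALBc normoxia (median -0.92) and 5 in hyperoxia, led by Gas5, a growth arrest transcript (-1.83 and -1.63).

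Counts for other parts of the machinery are set beside the 15.4% of all genes called higher and the 14.6% called lower in BALBc normoxia. Of 77 mitochondrial ribosomal protein genes, 7 were called higher and 10 lower in BALBc normoxia (median -0.01), and 1, Mrpl52, was called lower in C57 after hyperoxia. Of 58 genes of ribosome biogenesis, 2 were called higher and 6 lower in BALBc normoxia (median 0.04), and 0 in C57 after hyperoxia. Among 35 initiation factors 1 was higher and 7 lower (median -0.05), and among 15 genes of RNA polymerase I 3 were lower. Of 33 genes of the mTORC1 pathway 6 were higher and 3 lower (median 0.09), and of 20 cytosolic transfer RNA synthetases 5 were higher and 0 lower (median 0.14). The share called higher in the mTORC1 list lies near that over all genes. So do the shares called lower in the mitochondrial ribosomal protein, initiation factor and RNA polymerase I lists. Differences between all these lists and the members were not tested.

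The starts of the messenger RNAs were examined because the TOP start defines the translational control of this gene group. RefSeq promoter sequences (GRCm38.p6) matched 60 of the 84 members. Shown are 5 members of high mean FPKM whose annotated start is a C followed by at least 4 pyrimidines. They were ranked among only part of the matched members, so members of higher mean FPKM with such a start may be missing. Each window holds 15 bases before and 15 bases from the annotated start, and capitals mark the C and the pyrimidine run. They lie at chr4:86857353-86857382 (Rps6, - strand), chr11:114668565-114668594 (Rpl38, + strand), chr9:114982725-114982754 (Rps27rt, - strand), chr17:33955651-33955680 (Rps18, - strand) and chr7:4792950-4792979 (Rpl28, + strand).
Rps6: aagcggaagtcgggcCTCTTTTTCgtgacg
Rpl38: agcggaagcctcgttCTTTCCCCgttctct
Rps27rt: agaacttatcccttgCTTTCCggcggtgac
Rps18: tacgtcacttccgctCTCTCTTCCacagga
Rpl28: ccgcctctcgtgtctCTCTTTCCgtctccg

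Among the 60 matched members, 23 (38.3%) had an annotated start on C, against 18.9% of 27025 genes. A C with at least 4 pyrimidines after it was found in 14 (23.3%), against 3.0% of all genes, and a pyrimidine run of at least 5 bases over the start in 21 (35%), against 11.8%. The letters CTTTC lay on the sense strand within 15 bases of the start in 17 (28.3%), against 4.8%, and can overlap the runs just described. The letters CCGGAAG, searched on both strands over the 300 bases of each promoter, were found in 24 (40%), against 9.9%, and TATAAA from 40 to 20 bases before the start in 1 (1.7%), against 2.3%. These are matches of letters at annotated starts, and annotated starts may be off by some bases.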

How the data were processed

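Gene expression was measured by RNA sequencing in 15 mouse liver libraries. The authors deposited FPKM for 54532 genes, and per the submitters' processing notes HISAT2 2.0.5, featureCounts 1.5.0-p3 and the genome build GRCm38 were used. Per the labels' protocols, TRIzol was used for the RNA and a NEBNext Ultra II kit for the libraries. The sources used here give neither strandedness, read length nor the handling of reads that map to several genes. FPKM relates each gene to all mapped fragments of its library, so a change in other abundant RNAs moves every gene.

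Identifiers were matched to GENCODE M21 (54495 matched, 37 did not). Genes with at least 1 FPKM in at least 3 libraries (13026) were tested as log2(FPKM + 1), a scale that understates the change of low genes, with a pseudocount of 1. limma 3.58.1 in R 4.3.3 fitted 1 mean per group to all 15 libraries, with variances moderated by empirical Bayes along a trend, and p-values were adjusted by Benjamini-Hochberg over all tested genes. The step of the smallest values gave the fragments behind each library, and below 30 fragments 98.14% to 98.69% of values were whole fragments to within 0.05. Intervals on single counts were not used, since the spread between libraries sets the error. Copies were added to their parent as fragments per 1000000 (FPKM times length in kilobases).

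The members and gene lists were chosen with earlier results of these data known. Members were named if they were among the 8 with the smallest p of those called in a direction in a comparison, the 5 highest or lowest by mean FPKM, a stalk protein, a paralogue or its partner, or, where none was called, the 3 with the smallest p; others were picked after their values were seen. Some genes are counted but not reported or drawn by name here. Alternatives were other pseudocounts, filters, scalings and model terms, and leaving out each library. Same-numbered libraries gave little sign of pairing, so the libraries were treated as unpaired. Python 3.11.15, numpy 2.4.6, pandas 2.3.3 and matplotlib 3.10.9 were used. Raw reads were not analysed here.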

Additional observations from a re-analysis of the deposited data

Results flagged for a closer look

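For 4 genes, 5 values stood apart from the other libraries of their group by the size of their gap to the nearest one, relative to the group's range. Rpl13a was at 9.86 FPKM in C57 normoxia 2 and at 5.50 to 6.10 in the other 3 libraries of that group. In the same library Rpl21 was at 8.40 FPKM, against 22.2 to 24.4 in the others. Rpl35a was at 48.4 FPKM in C57 normoxia 4 and at 27.2 to 29.5 in the others. Rps27 was at 122 FPKM in C57 normoxia 4, against 41.7 to 48.2, and at 30.5 FPKM in BALBc hyperoxia 4, against 57.1 to 60.7. Of these genes Rps27 shares nearly all of its sequence with Rps27rt, which was at 81.4 FPKM in C57 normoxia 4, below the others of its group, and at 166 FPKM in BALBc hyperoxia 4, above the others of its group. Chance flags about 1 in 20 groups, and 105 groups of values were screened.

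The oxygen responses of the strains differed by a direct test for 1 member, Rps12, with a difference of 0.78 on the log2 scale (limma, adjusted p = 0.0314).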

How the results depend on the processing

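The lower level of ribosomal protein genes in BALBc kept its direction as a median under each alternative except scaling every library to the members' own median. In normoxia 69 to 77 members were called, and in hyperoxia 53 to 68, when 1 library at a time was left out, with medians of -0.82 to -0.70 and -0.46 to -0.40. In C57 after hyperoxia the number called was 2 to 15 and the median -0.35 to -0.23, in BALBc 0 to 1 and 0.01 to 0.11, and for the difference of responses 0 to 3 and 0.26 to 0.40. The 13 members called in C57 became 6 with a term for Xist, with no filter, or with no variance trend. They became 4 with only the groups compared, 5 under quantile normalization and 0 with library class as a term (median -0.42). With a ribosomal and small RNA set removed, 7 were called. That set, 7.52% to 21.78% of the FPKM of a library, held ribosomal RNA, small RNA and mitochondrial ribosomal and transfer RNA genes and some provisional (Gm) genes. The difference of responses gave 0 members with no filter, 4 at a filter of 5 FPKM and 3 with library class (median 0.47). It gave 6 under quantile normalization or without the ribosomal and small RNA set. The hyperoxia strain comparison gave 35 members with library class (median -0.31), and a median of -0.30 without the ribosomal and small RNA set. The cause of these changes was not tested.

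Replicate numbers gave little sign of pairing. The deviations of same-numbered libraries correlated above 0.1 in 1 of 21 pairs, and 4 of 15 libraries were most like their own number. With the replicate number as a block, 8 members were called in C57, 0 in BALBc, 1 for the difference, 75 in normoxia and 62 in hyperoxia between strains. The addition of copies and the removal of the ribosomal and small RNA set were chosen after seeing the data. So was the use of only libraries with few genes at 1 fragment, which gave 72 members called between strains in normoxia (median -0.75). That use could not be fitted for comparisons with C57 hyperoxia, which has no such library.

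Scaling each library to the median of the ribosomal protein genes removes by construction what the members share. It moved the median of all genes by 0.32 in C57 hyperoxia, 0.97 and 0.54 between strains in normoxia and hyperoxia, and -0.42 for the difference. The members' medians became 0.0173, 0.19, 0.11 and -0.0717, with 6, 44 and 39 members called in the first 3 of these comparisons. Listed next are only members whose sign reversed under this scaling and that were called with or without it. They are 2 of the 33 members named by rule in C57 hyperoxia. Between strains they are 15 in normoxia and 12 in hyperoxia, and the others are not listed. Relative to the other members, C57 hyperoxia then gave 0.0157 for Rpl6 and 0.30 for Rpl7l1. BALBc normoxia gave 0.10 for Rplp1 and Rpl13, 0.16 for Rpl36, 0.23 for Rps4x, Rpl22 and Rpl13a, 0.27 for Rplp2, 0.32 for Rpl6 and Rpl37rt, 0.37 for Rpl22l1, 0.38 for Rps15, 0.42 for Rpl19 and Rpl7, 0.55 for Rpl4 and 0.76 for Rps27l. BALBc hyperoxia gave 0.0905 for Rplp1, 0.0934 for Rps4x, 0.13 for Rpl36, 0.19 for Rpl7 and Rps12, 0.20 for Rpl6, 0.23 for Rpl22, 0.24 for Rpl13, 0.36 for Rps15, 0.40 for Rpl4 and Rps27l, and 0.47 for Rpl19. Depth limits the members near 0 in BALBc, such as Rpl29, with as few as 6 fragments in a library.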

Other observations

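Lists of related pathways are given beside the 15.4% of all genes called higher and the 14.6% called lower in BALBc normoxia. Among 14 tested targets of the integrated stress response, the programme that lowers translation initiation when amino acids are short, 7 were called lower and 2 higher in BALBc normoxia (limma, Benjamini-Hochberg over all genes), with a median of -0.49. Asns, the asparagine synthetase, averaged 6.43 FPKM in C57 normoxia and 1.33 in BALBc normoxia (-1.67, adjusted p = 1.23e-06), and Atf4, the transcription factor of this response, 44.1 and 26.2 FPKM (-0.72, adjusted p = 0.000214). Psat1, an enzyme of serine synthesis, was lower as well (-1.08, adjusted p = 0.000686), whereas the hormone gene Fgf21 was higher (1.51, adjusted p = 0.0232).

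Of 14 p53 targets tested, 5 were called higher and 1 lower in BALBc normoxia (median 0.25). Cdkn1a, the cell cycle inhibitor p21, averaged 6.80 FPKM in C57 normoxia and 12.3 in BALBc normoxia (0.81, adjusted p = 0.00306), Bbc3, an inducer of apoptosis, 3.34 and 6.53 FPKM (0.83, adjusted p = 0.00656), and Btg2 was lower (-0.64, adjusted p = 0.00354). Among the transfer RNA synthetases called higher, Aars averaged 13.9 and 25.8 FPKM (0.85, adjusted p = 4.56e-05). No member of these lists was called in BALBc after hyperoxia, and 1, Vldlr, was called lower in C57. Of 10 genes of the Myc family 2 were called higher and 1 lower in BALBc normoxia, shares near those over all genes.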
